A study of Mus musculus with 2 samples.

Results

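Among the cells of healing mouse skull bone was a set of fibroblastic cells rich in 2 extracellular matrix transcripts, Eln, which encodes the core protein of elastic fibres, and Mgp, which encodes matrix Gla protein, an inhibitor of calcification. These Eln and Mgp fibroblastic cells were selected on measured values. A cell had to hold fibrillar collagen transcripts (Col1a1, Col1a2 and Col3a1) at 1% or more of its unique molecular identifiers (UMIs, each a counted RNA molecule), at least 2 UMIs of the mesenchymal genes Pdgfra and Prrx1, Eln at 0.05% or more and Mgp at 0.2% or more. Cells with transcripts of neutrophils (S100a8 and S100a9 at 1% or more), osteoblasts (Bglap and Bglap2 at 0.5% or more), leukocytes (more than 5 UMIs of Ptprc and Csf1r) or dividing cells (10 or more UMIs of Mki67, Top2a and Ube2c) were left out. The selection found 246 of 17129 cells, 33 in the library of gambogic amide (GA) treated mice and 213 in the control library. Cells that met every condition other than those on Eln and Mgp are called mesenchymal cells below, and there were 791 in GA and 1625 in control.

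The study asked how GA, a small molecule given to act on sensory nerves, alters repair of the calvaria. C57BL/6 mice received 100 µL of either vehicle (10% DMSO) or GA dissolved in it at 1.2 mg/kg, injected into the peritoneum, from 24 h before a skull defect was made and then every day for 1 week. The labels give this dose, and the study's methods describe dose and duration of treatment otherwise. A bone piece of about 3 mm around the defect was taken at day 7 and digested with collagenase, and the male mice of 2 months in each group were pooled into 1 library. Neither group therefore has a replicate, no test between groups was possible, and every interval below is a 95% interval that covers counting error only. The GA library held 182949385 UMIs in 9322 cell barcodes and the control library 214993030 UMIs in 8718 barcodes. Of the barcodes, 23 occurred in both libraries, and none of these was among the Eln and Mgp cells.

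Elastin is laid down on a scaffold of microfibrils and fibulins and crosslinked by enzymes of the lysyl oxidase family, and it gives tissues their recoil. In the mouse build GRCm38, Eln lies on the minus strand at chr5:134702593-134747323 and Mgp on the minus strand at chr6:136872435-136875823, and Foxd1 and Foxc1, described below, both lie on chromosome 13, at chr13:98354242-98359305 and chr13:31806633-31812476 on the plus strand. In the skull, elastin-rich connective tissue occurs in vessel walls, sutures, periosteum and the meninges that adhere to the inner bone surface. Forkhead factors such as Foxc1, Foxc2 and Foxd1, with Tbx18 and the Zic genes, are known from the embryonic mesenchyme of head, meninges and vessel-associated stroma. Fibroblasts marked by Cd34, Pi16, Dpt and Ly6a, often termed universal fibroblasts, occur in the connective tissue of most organs.

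The Eln and Mgp cells were deeply sequenced in both libraries. A GA cell of the set held 18816 to 62938 UMIs (median 35069) and a control cell 20944 to 109608 (median 41903), with medians of 5661 and 6441 genes and mitochondrial shares of 3.36% and 4.33%. Together the GA cells held 1209404 UMIs and the control cells 9459377, so that values of the control cells carry the smaller counting error. Thinned to 15000 UMIs each, GA cells held a median of 3891 genes and control cells of 4052, against 3936 and 3883 in the other mesenchymal cells.

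Levels are given as CPM, the UMIs of a gene scaled to a common total of UMIs per cell or population. Eln ranged from 527 to 10045 CPM over the GA cells, with a median of 1618, and from 507 to 16520 over the control cells, with a median of 1876. Mgp ranged from 2159 to 61854 (median 7324) in GA and from 2033 to 47478 (median 8935) in control cells. These levels were set by the selection and are given as a description. The cells nearest to the Eln limit held 0.0527% inside and 0.0494% outside it in GA, and 0.0507% and 0.0492% in control. For Mgp the nearest values were 0.216% and 0.191% in GA and 0.203% and 0.199% in control. Neither limit fell in a gap: in the control library 29 cells lay within 1.5 times above the Eln limit and 33 within 1.5 times below it. The cloud of single cells shows Eln and Mgp spread without a break across both limits.

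**Figure D1:**
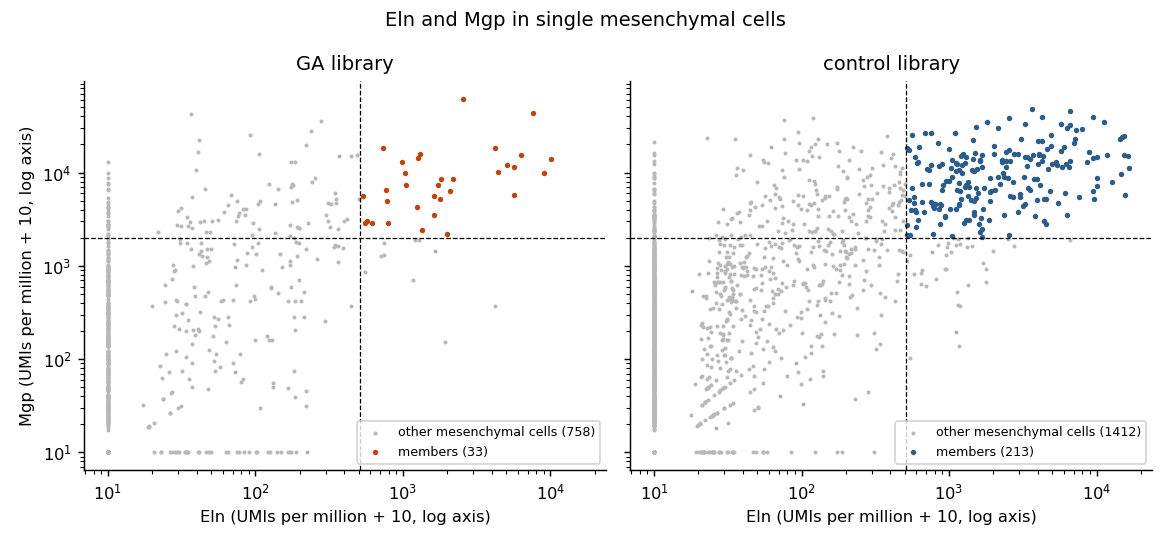
Eln against Mgp in each mesenchymal cell of the GA (left) and control (right) library, in CPM plus 10 on log axes; dashed lines mark the limits of the selection. The selected cells fill the upper right corner, 33 in GA and 213 in control, and cells on the left and lower edges held no UMI of the gene.

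The first comparison asked how large a share of the mesenchymal cells the set took in each group. It was 33 of 791 cells in GA, 4.17% (exact binomial interval 2.89% to 5.81%), and 213 of 1625 in control, 13.1% (11.5% to 14.8%). The share in GA was 0.318 of that in control (0.223 to 0.455). The libraries differed at several steps of the selection. The collagen condition kept 1075 of 9036 GA cells and 2060 of 8093 control cells. Of the 791 and 1625 mesenchymal cells, the Mgp limit kept 138 and 438, and the Eln limit then kept 33 and 213 of these. Cells over the Mgp limit and under the Eln limit made up 13.3% of mesenchymal cells in GA (105 cells) and 13.8% in control (225 cells), a ratio of 0.959. Cells over the Eln limit alone were few, 10 and 37. A smaller share past these limits can mean fewer such cells or less Eln RNA per cell, and from the share alone these cannot be told apart.

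The make-up of the libraries differed in other ways too. Of all cells, mesenchymal cells were 8.75% in GA and 20.1% in control, and neutrophils were 4875 of 9036 cells in GA against 2168 of 8093 in control. Of all cells the Eln and Mgp cells were 0.365% and 2.63%, a ratio of 0.139 (0.0963 to 0.2). In the sum of Eln and Mgp cells and endothelial cells, the Eln and Mgp cells were 19.2% in GA and 54.6% in control, a ratio of 0.351. Within the mesenchymal cells, Cd34-high cells took 1.76 times the control share in GA, and cells with the tendon factor Scx took 0.490 of it.

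Dividing cells were removed by the selection, so their number was counted apart. Cells that met every other condition and had 10 or more UMIs of the division genes were 0 of 33 in GA, which allows a share of up to 10.6%, and 13 of 226 in control, 5.75% (3.10% to 9.64%). The corresponding shares among the remaining mesenchymal cells were 9.87% and 13.4%. The GA count was too small to show a difference in division.

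The label of the set rests on 4 markers, and the cells were checked for Foxd1 and Foxc2, which the selection did not use. Foxd1 was detected in 16 of 33 GA cells (48.5%) and 179 of 213 control cells (84.0%), with summed levels of 93.4 and 124.5 CPM. In neutrophils, which should lack this gene, it was detected in 0.0410% and 0.138% of cells, at median depths of 7479 and 5423 UMIs, so that the detection was far above that of free RNA. Foxc2 was detected in 24.2% of GA and 52.6% of control cells. Foxc1, a close relative of Foxc2, was at 70.3 and 117 CPM, and Tbx18 at 72.8 and 107. In the other mesenchymal cells Foxd1 stood at 13.2 and 17.95, Foxc1 at 12.8 and 20.9, and Tbx18 at 13.1 and 17.7 CPM. The markers thus held for the set as a sum in both libraries, but the remaining GA and control cells had no Foxd1 UMI.

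**Figure D2:**
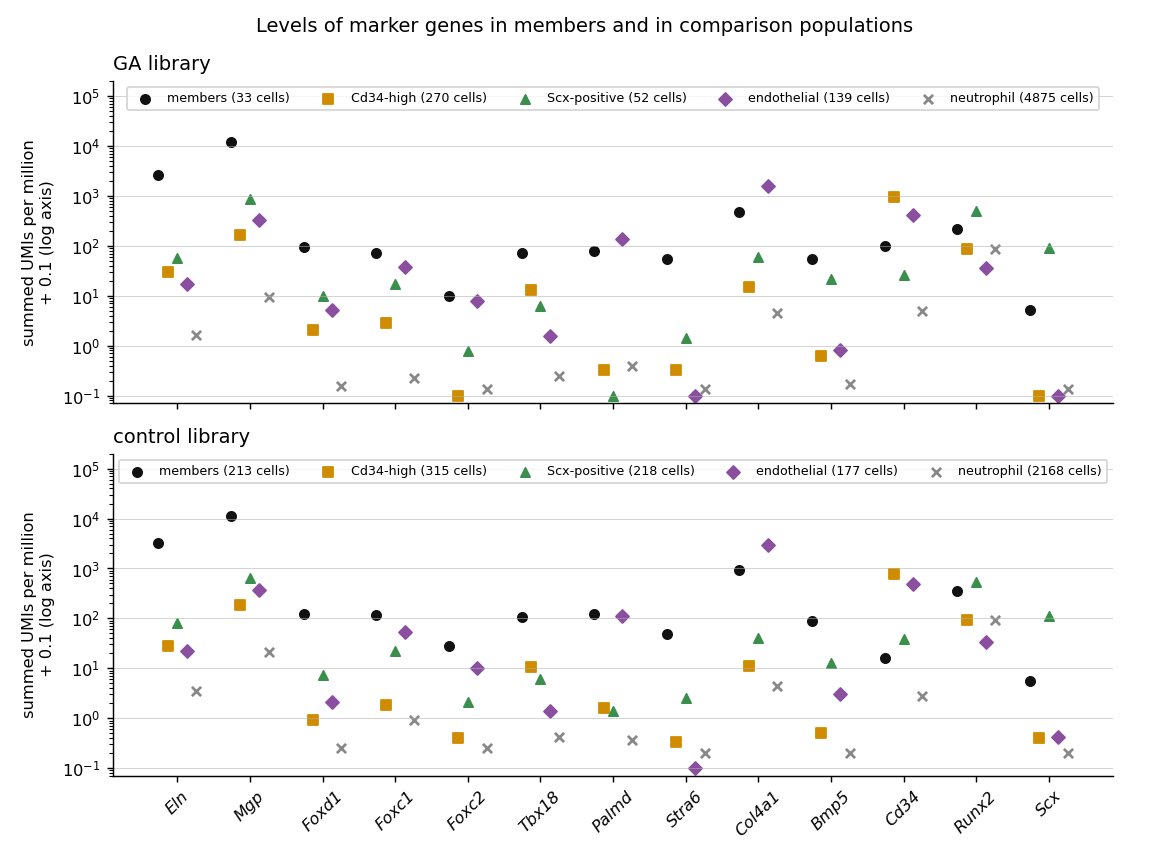
Summed levels of 13 genes in CPM plus 0.1 (log axis) in the Eln and Mgp cells (black circles) and 4 comparison populations, for GA (top) and control (bottom). Foxd1, Foxc1, Foxc2, Tbx18, Stra6 and Bmp5 lie highest in the Eln and Mgp cells in both libraries, whereas Cd34 lies highest in Cd34-high cells and Scx in Scx-positive cells.

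Clustering of the 246 cells, with the genes of the selection left out, gave 4 clusters and showed that the set was not uniform. Clusters 1, 2 and 3 were adjoining and held 92, 83 and 38 cells. Cluster 4 stood apart and held 33 cells, 15 from GA and 18 from control. Every gene named for a cluster here describes how the cells were grouped and is no separate finding.

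Cluster 1 was led by Areg, a ligand of the EGF receptor, by Itga2, a collagen-binding integrin, by Inhba, the activin A subunit, and by Has2, a hyaluronan synthase. Areg was at 188 CPM in it and 8.51 in the other clusters, and Inhba at 474 and 73.2. Cluster 2 had high Hspa1a (1557 against 394), Hspa1b (1009 against 292) and Egr2 (96.8 against 26.6), genes of the heat shock and immediate early responses. Cluster 3 was led by the contractile genes Acta2 (1857 against 327), Actg2, Tagln (1026 against 268) and Myl9. Of the 14 genes of the mural list, which holds Acta2, Tagln and Myl9, 4 were past 2-fold above the other clusters, with sums of 3616 against 951 CPM. The mural markers Rgs5 and Myh11 were nearly absent from cluster 3, with 0 Rgs5 UMIs in its GA cells and 2 in its control cells. It was left without a cell type name. Over the whole set, 3 of 10 mural genes were past 2-fold higher than in other mesenchymal cells in both libraries and 1 lower. None of the Eln and Mgp cells of GA and 1 of control had Rgs5 at 0.05% of its UMIs.

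Cluster 4 was led by Angptl1 (435 against 1.05 CPM), Cxcl14 (561 against 3.46), Sfrp2 (2634 against 33.1), Dpt (253 against 2.83), Clec3b (336 against 4.40) and the complement gene C3 (233 against 3.04). All 14 genes of the universal fibroblast list were past 2-fold above the other clusters, and their summed level was 10402 against 2053 CPM. Cluster 4 was therefore called universal fibroblast-like. Only 6.06% of the GA cells and none of the control cells of the whole set had Cd34 at the level used for Cd34-high cells, 0.05% of UMIs.

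The forkhead genes separated the 2 kinds of cell almost without overlap. These genes and the universal fibroblast genes were not left out of the clustering. Their values here describe how the cells were grouped and are no separate finding. In the universal fibroblast-like cells, the summed UMIs of Foxc1, Foxc2 and Foxd1 were 0 in 14 of 15 GA cells and in 18 of 18 control cells, and the exception held 1 UMI. In the remaining cells they were 2 to 21 UMIs (median 11) in all 18 GA cells, and 0 to 43 (median 11) in the 195 control cells, of which 1 held none. Foxd1 was at 155 CPM in the forkhead-expressing cells of GA and 134 in those of control. It had no UMI in the universal fibroblast-like cells, so it was at least 24.8-fold higher in GA and at least 28.5-fold higher in control, taking 3 counts per group of cells as the floor. The sum of Cd34, Pi16, Clec3b, Dpt and Ly6a had a median of 62 UMIs per cell in the universal fibroblast-like cells of GA and 43.5 in those of control, against 1 and 1 in the forkhead-expressing cells. A few cells overlapped here, since the lowest universal fibroblast-like cell held 2 UMIs in GA and 0 in control and the highest forkhead-expressing cell 7 and 21.

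Eln and Mgp, which chose the cells and are given as a description, were lower in the universal fibroblast-like cells. Eln stood at 1633 (GA) and 1212 (control) CPM there, against 3288 and 3457 in the forkhead-expressing cells, and Mgp at 5516 and 3774 against 16055 and 12006. All 33 cells of cluster 4 passed the Eln and Mgp limits, but the label's other markers, Foxd1 and Foxc2, had no UMI in them, and their UMIs came from clusters 1 to 3, with 213 of the 246 cells.

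**Figure D3:**
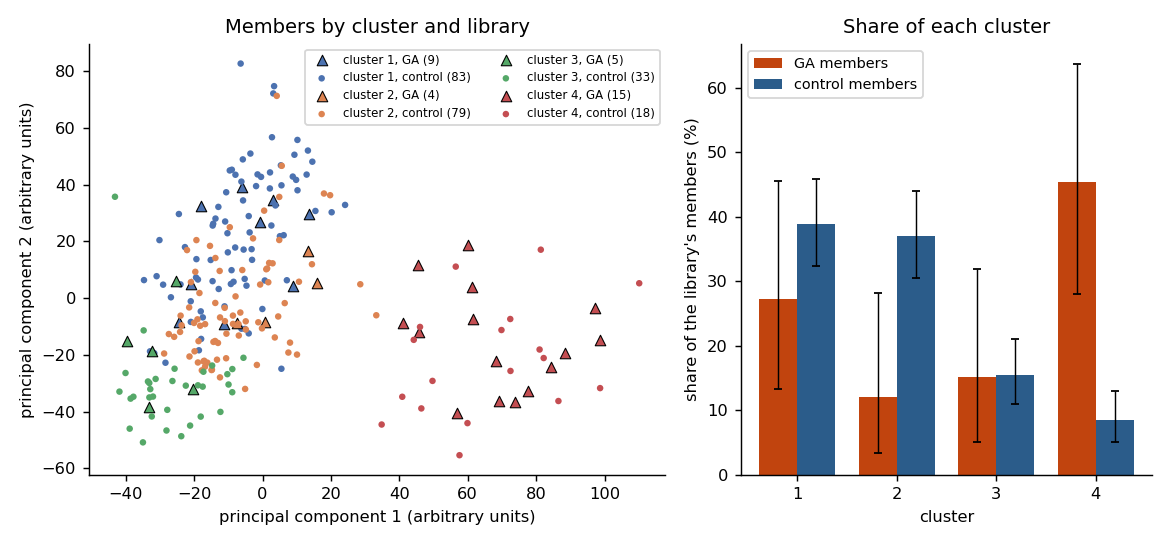
Left, the 246 Eln and Mgp cells on the first 2 principal components, coloured by cluster, with triangles for GA and circles for control cells. Right, the share of each library's cells in each cluster, with exact binomial 95% intervals; cluster 4 holds 45.5% of the GA cells and 8.45% of the control cells.

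The 2 kinds of cell took different shares in the libraries. Universal fibroblast-like cells were 15 of 33 Eln and Mgp cells in GA, 45.5% (28.1% to 63.6%), and 18 of 213 in control, 8.45% (5.09% to 13.03%). As a share of mesenchymal cells they were 1.90% in GA and 1.11% in control, a ratio of 1.71 with an interval of 0.867 to 3.38 that held 1. Forkhead-expressing cells were 18 of 791 mesenchymal cells in GA, 2.28% (1.35% to 3.57%), and 195 of 1625 in control, 12.0% (10.5% to 13.7%), a ratio of 0.190 (0.118 to 0.305). The lower share of the set in GA was thus seen in its forkhead-expressing cells. Of these, GA held 9, 4 and 5 cells in clusters 1, 2 and 3 and control 83, 79 and 33.

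Counting forkhead genes alone, with no limit on Eln or Mgp, gave a smaller difference. Mesenchymal cells with 3 or more UMIs of Foxc1, Foxc2 and Foxd1 were 108 in GA, 13.7% (11.3% to 16.2%), and 464 in control, 28.6% (26.4% to 30.8%), a ratio of 0.478 (0.395 to 0.579). After thinning each cell to 15000 UMIs the ratio was 0.467. Of such cells 17 in GA (15.7%) and 183 in control (39.4%) belonged to the Eln and Mgp set. This count was chosen after the clusters had been seen.

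**Figure D4:**
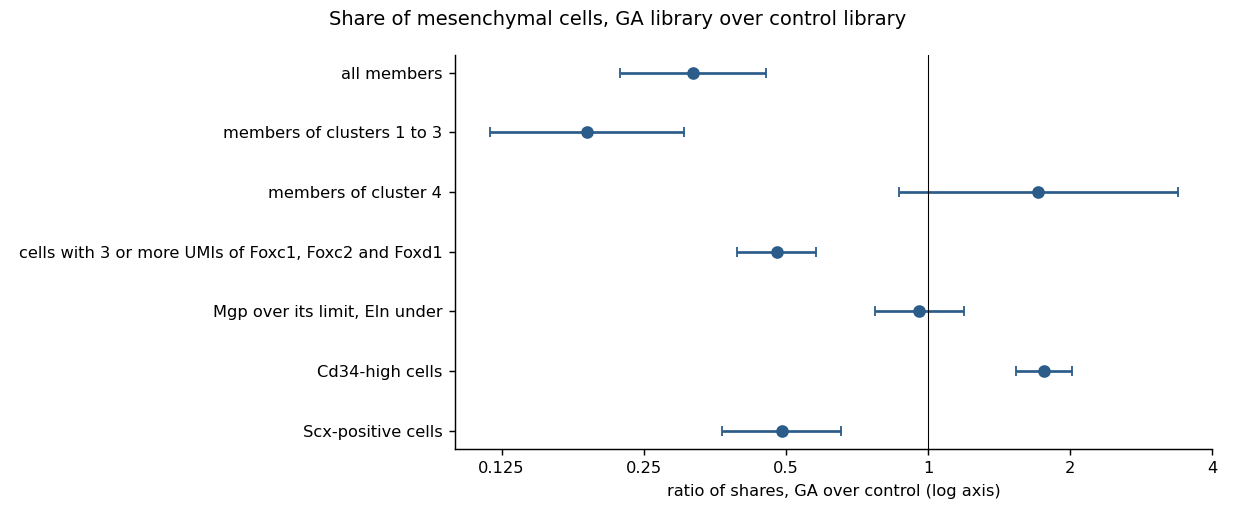
Share of mesenchymal cells in GA divided by that in control (log axis) for 7 groups of cells; bars are 95% intervals for counting error and the line marks equal shares. The ratio is 0.190 for clusters 1 to 3, 1.71 for cluster 4 and 0.478 for cells with 3 or more forkhead UMIs, groups that share cells with each other.

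The Eln and Mgp cells were next described by the genes in which they stood apart from the other mesenchymal cells. Of 11518 genes, 421 were past 2-fold higher in both libraries (3.66%) and 512 past 2-fold lower in both (4.45%). The selection used this contrast through Eln and Mgp, and nothing further is read from these counts.

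Genes of retinoid handling differed in both directions. Stra6, a cell surface receptor for retinol uptake, was at 54.6 CPM in GA and 48.8 in control against 2.48 and 4.32 in other mesenchymal cells, log2 differences of 4.46 and 3.50. Crabp1, a retinoic acid-binding protein, went the other way, at 0.827 and 3.17 against 86.6 and 112. In all, 3 of 13 retinoid genes were past 2-fold higher in both libraries and 2 lower.

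Basement membrane collagen genes followed. Col4a1 was at 485 and 936 CPM against 44.2 and 107, and Col4a2 at 332 and 536 against 26.2 and 59.9. Of 16 basement membrane genes, 3 were past 2-fold higher in both libraries and none lower. Laminin and nidogen genes were mostly close to the other cells, such as Lamc1 with differences of 0.07 and 0.51 and Nid1 with -0.30 and -0.04.

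Elastic fibre genes other than Eln did not move as a block. Of 21 genes of the list beside Eln, 4 were past 2-fold higher in both libraries and 5 lower. The latent TGF-beta binding proteins Ltbp2 (162 and 138 CPM against 28.5 and 33.9), Ltbp4 (48.0 and 54.3 against 7.79 and 10.3) and Ltbp3 were higher, and so was fibulin 1 (Fbln1, 482 and 356 against 146 and 163). The microfibril gene Fbn1 was lower (574 and 460 against 1645 and 1039), and so was the crosslinking enzyme gene Loxl2 (76.9 and 86.8 against 496 and 521). Lox, another crosslinking enzyme, and Fbln5, which tethers elastin to cells, differed by less than 0.5 log2 units in each library. Of 12 other collagen genes, Col8a1, Col11a1 and Col8a2 were past 2-fold higher in both libraries and Col5a3 lower.

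Transcription factors of the meninges and cranial mesenchyme were the list with the most genes above the other mesenchymal cells: 14 of 21 were past 2-fold higher in both libraries and none lower. Beside the forkhead genes and Tbx18 they included Prdm6, a regulator of smooth muscle genes (80.2 and 130 against 7.22 and 12.8), Foxp2 (263 and 348 against 84.0 and 84.5), Nr2f2 (113 and 191 against 25.6 and 35.8), Zic1 (90.1 and 107 against 37.3 and 39.7) and Alx4 (22.3 and 22.2 against 3.08 and 4.94). Of 6 markers of the arachnoid barrier and dural border, 2 were past 2-fold higher in both libraries and 1, Dpp4, lower (14.1 and 3.07 against 124 and 54.1). Alcam was at 281 and 325 against 27.6 and 53.1 CPM and the tight junction gene Cldn11 at 19.8 and 43.2 against 5.59 and 12.6, whereas Slc47a1, at 4.13 and 5.81, did not stand apart.

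Of 20 genes of bone morphogenetic protein (BMP) signalling, 7 were past 2-fold higher in both libraries and 2 lower. The ligand genes Bmp5 (53.7 and 89.3 CPM against 5.56 and 12.9), Bmp6 (153 and 254 against 28.0 and 36.6) and Bmp4 (15.7 and 23.2 against 5.56 and 5.31) were among the 7, as were the extracellular modulator gene Smoc1 and the response genes Id1, Id3 and Smad6. Bmp2, at 4.13 and 5.07 against 14.3 and 15.8, was lower. The hedgehog ligand genes Shh, Ihh and Dhh together had 1 UMI in the GA cells and 2 in the control cells, while the coreceptor gene Boc and the effector gene Gli2 were past 2-fold higher than in the other cells in both libraries.

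Other leading genes were Palmd, a palmdelphin gene (78.6 and 121 against 4.99 and 8.06 CPM), the Notch target Hey1 (48.0 and 38.2 against 2.51 and 3.55), the efflux transporter gene Abcb1a (59.5 and 141 against 5.81 and 15.2) and the chemokine gene Cx3cl1 (35.6 and 50.3 against 4.44 and 7.04). Of 4 endothelial genes tested, Cdh5 was past 2-fold higher in both libraries and Pecam1, Tek and Eng lower. Erg, also known from endothelium, was higher too (35.6 and 45.9 against 3.98 and 5.68), and Cdh5 stood at 33.1 and 42.7 against 2.96 and 7.14. The defining endothelial gene Pecam1 had 0 UMIs in the GA cells and 17 in the control cells, and no cell of the set held Pecam1 and Cdh5 at 0.05% of its UMIs. The summed endothelial list was at 82.7 and 84.6 CPM in the Eln and Mgp cells, against 88.9 and 75.4 in the other mesenchymal cells.

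Osteogenic genes were low. Of 12 measured, 7 were past 2-fold lower than in the other mesenchymal cells in both libraries, among them Ibsp, with 0 UMIs in GA and 0.317 CPM in control against 142 and 141, and the osteoblast factor Sp7. Runx2, an earlier osteogenic factor, was at 217 and 348 against 213 and 314. Of 14 universal fibroblast genes 10 were lower in both libraries, such as Ly6c1, at 43.8 and 7.93 against 378 and 198. Of 15 hypoxia and glycolysis genes, 5 were lower and none higher, such as Pgk1 (57.9 and 76.9 against 229 and 233). Among the 10 leading lower genes were the matrix gene Tnn, tenascin N (11.6 and 9.94 against 242 and 317), the homeobox gene Barx2 (0 UMIs in GA and 0.846 CPM in control against 51.6 and 43.95) and Adamts19 (0.827 and 0.211 against 36.3 and 39.5).

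The last comparison was of GA with control within the set, which the selection did not use. Of 8564 genes with 100 or more UMIs, 151 were past 2-fold higher in GA (1.76%) and 257 past 2-fold lower (3%), and the median log2 ratio was -0.07, with 8 in 10 genes between -0.59 and 0.43. For the same genes in the other mesenchymal cells, which were 758 and 1412, 43 and 60 were past 2-fold and the median was 0.00. The smaller number of cells in the set leaves more room for counting error. When, for each gene, the 5 cells with the most UMIs were left out of each library, 46 genes that were also detected in 20% of the cells remained past 2-fold higher and 236 lower. That step took 5 of 33 GA cells and 5 of 213 control cells, and it therefore lowers GA levels more, so that it is no check on genes lower in GA.

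The genes highest in GA were mostly those of the universal fibroblast-like cells, which made up a larger part of the set in GA. Of all cells in the libraries they were 0.166% in GA and 0.222% in control, a ratio of 0.746 (0.376 to 1.48). Cxcl14, a chemokine gene, had 415 UMIs in the GA cells and 247 in the control cells, 343 and 26.1 CPM, a log2 ratio of 3.72 (3.49 to 3.95), and was detected in 14 GA and 24 control cells. Pi16 had a ratio of 3.15, Clec3b of 2.90, Ly6a of 2.83 and Cd34 of 2.59, and Scara5, Osr2, Meis2, Ntrk2 and Adgrd1 completed the 10 highest among genes detected in 20% of the GA cells and still past 2-fold without their 5 highest cells. Without that condition Tac1, a neuropeptide gene, was above Cxcl14, at 3.79, and its 161 GA UMIs came from 12.1% of the GA cells. Of the 11 universal fibroblast genes with 100 UMIs, 8 were past 2-fold higher and none lower, with a list median of 2.27 against -0.08 for all genes and 0.58 for this list in the other mesenchymal cells. Chemokine, cytokine and complement genes followed with 12 of 20 higher, 1 lower and a median of 1.09, among them C4b at 2.58, Ccl8 at 2.58 and Cxcl1 at 1.89.

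Without the universal fibroblast-like cells fewer genes were higher in GA, and the medians of both lists lay near 0. Cluster 4, which holds these cells, was picked as the cluster with the most universal fibroblast genes past 2-fold. A fall of that list's median was therefore built in and is no separate finding. In cluster 4, 14 of 22 chemokine, cytokine and complement genes were past 2-fold above the other clusters too. In the 18 GA and 195 control forkhead-expressing cells, 85 of 8248 genes were past 2-fold higher (1.03%) and 271 lower (3.29%). Of the 85 only 30 were among the 151 found with all cells, and of the 271 lower genes 109 were among the 257. The universal fibroblast list had a median of 0.06 and the chemokine, cytokine and complement list of -0.07. Cxcl1 stood at 101 CPM in GA and 105 in control, Ccl8 had 1 GA UMI and 33 control UMIs, a log2 ratio of -1.45 (-6.79 to 1.13), and C4b had 15 and 91 UMIs, a ratio of 0.99 (0.0999 to 1.79). Cd34 stood at 4.11 CPM in GA and 5.67 in control, Ly6a at 21.9 and 23.1 and Has1, a hyaluronan synthase, at 42.5 and 43.8. Meis2 had 0 UMIs in these GA cells and 4.31 CPM in control, against a GA floor of 4.11. Ntrk2, which encodes the BDNF receptor TrkB, was an exception, with 31 UMIs in the GA cells (42.5 CPM) and 84 in control (9.52), a log2 ratio of 2.16 (1.51 to 2.77). Over the whole set, the 5 highest cells of each library held 80 of 99 GA and 49 of 104 control Ntrk2 UMIs. Few UMIs were left for others of the 10 highest genes, whose intervals held 0: Pi16 had 5 and 22 UMIs, a log2 ratio of 1.46 (-0.30 to 2.89), Osr2 0.79 (-0.92 to 2.15), Cxcl14 0.74 (-1.23 to 2.25) and Clec3b 0.71 (-0.996 to 2.06). Scara5 had 0 UMIs in these GA cells and 20, 19 and 0 UMIs in the control cells of clusters 1, 2 and 3.

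Within the universal fibroblast-like cells alone, which were 15 and 18, Cxcl14 was at 856 CPM in GA and 340 in control, a log2 ratio of 1.33 (1.09 to 1.57). Ntrk2 had a ratio of 2.18 (1.44 to 2.98) and Meis2 of 1.00 (0.53 to 1.48). Sfrp2, a secreted Wnt inhibitor gene, was lower, at 1646 against 3374 CPM, and so was the chemokine gene Ccl2, at 97.9 against 362. In these cells the universal fibroblast list had a median of 0.58, with 11 of 14 genes above 0. Its summed level was 10179 CPM in GA and 10570 in control. The chemokine, cytokine and complement list had a median of 0.22, with 15 of 22 genes above 0 and sums of 6660 and 5293. With so few cells in each library, single cells can carry these values: of the 415 Cxcl14 UMIs of GA, 148 came from 1 cell.

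Several genes were lower in GA in the forkhead-expressing cells as well. Fabp5, a fatty acid-binding protein gene, had 64 UMIs in all GA cells of the set and 3257 in control, 52.9 and 344 CPM, a log2 ratio of -2.70 (-3.08 to -2.35). It was detected in 66.7% of GA and 89.7% of control cells. In forkhead-expressing cells it stood at 63.1 and 366, a ratio of -2.54 (-2.99 to -2.12), and in the other mesenchymal cells at 219 and 341, a ratio of -0.64. The GA value in forkhead-expressing cells rests on 46 UMIs, and the 5 highest control cells of the set held 913 of its 3257 UMIs. The related gene Fabp4 had 1 UMI in GA and 202 in control, and in the other mesenchymal cells it was lower in GA too, with a ratio of -1.39.

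Mmp13, the gene of a collagenase of bone and wound matrix, had 6 UMIs in 4 GA cells and 1120 in 88 control cells, 4.96 and 118 CPM, a log2 ratio of -4.58 (-6.03 to -3.45). In the other mesenchymal cells it was at 132 and 140, a ratio of -0.08. With the Eln and Mgp limits halved, Mmp13 turned the other way, at 1.34 on the log2 scale, so that its value depended on the limits of the set. Cyyr1 (4.13 and 60.0 CPM), the ceruloplasmin gene Cp (5.79 and 33.9) and the hyaluronan-degrading gene Cemip (9.10 and 50.3) were also among the 10 lowest genes detected in 20% of the control cells, with ratios of -3.86, -2.55 and -2.47. In forkhead-expressing cells their ratios were -3.23, -2.10 and -1.78. In the other mesenchymal cells Cyyr1 was lower in GA too, at 2.78 and 14.8 CPM, a ratio of -2.41, whereas Cp was at 0.03 and Cemip at 0.36. Spp1, the osteopontin gene, was at 51.3 and 187 CPM, and at 69.9 and 198 in forkhead-expressing cells. Ntrk3, the gene of the neurotrophin receptor TrkC, was at 6.61 and 33.9, with 8 UMIs in GA and 321 in control.

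Most of the marker genes of the set differed little between the libraries once the universal fibroblast-like cells were set aside. Foxc2 had a lower value in GA that rests on 12 UMIs. In the forkhead-expressing cells the log2 ratio of GA to control was 0.21 for Foxd1 (-0.08 to 0.49), -0.12 for Foxc1 (-0.46 to 0.20), -0.04 for Tbx18 (-0.38 to 0.29) and -0.04 for Palmd. Foxc2 stood at 16.5 CPM in GA, from 12 UMIs, and 29.3 in control, a log2 ratio of -0.83. So few GA UMIs leave a wide counting error on this ratio. Over all cells of the set the same ratios were -0.41 for Foxd1 and -0.73 for Foxc1. Foxc2 had no UMI in cluster 4, so that its GA level over the set rested on the same 12 UMIs. Eln, which the selection used, had a ratio of -0.07 in forkhead-expressing cells and Mgp of 0.42. The list of meningeal and cranial factors had a median of -0.41 over the whole set and -0.07 without cluster 4, and the elastic fibre list 0.30 and 0.05. Of 22 meningeal and cranial factors, 2 were past 2-fold lower over the whole set and 1 higher, with a lowest ratio of -1.46.

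The contractile genes depended on single cells. Acta2 was at 843 CPM in GA and 555 in control over the set, and at 1372 and 593 in forkhead-expressing cells. One GA cell held 532 of the 1019 Acta2 UMIs, and the 5 highest held 934. Aldh1a3, a retinaldehyde dehydrogenase gene, and Sfn, with 130 and 31 UMIs in the GA cells, had a similar make-up: without their 5 highest cells the log2 ratios of 1.498 and 1.67 turned to -1.42 and -0.89.

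Interferon response genes differed less between the libraries in the Eln and Mgp cells than in the other mesenchymal cells. In the other mesenchymal cells all 14 genes of the list were higher in GA, with a median log2 ratio of 1.59 and summed levels of 2038 CPM in GA and 834 in control. The Eln and Mgp cells had a median of 0.20, with 8 of 14 genes above 0 and sums of 970 and 850. Isg15, an interferon-induced ubiquitin-like modifier, was at 102 and 128 CPM in the set, against 276 and 80.5 in the other mesenchymal cells. A single GA cell held 54 of the 123 Isg15 UMIs of the set, and the median per cell was 40.1 CPM in GA and 58.6 in control. Without the cell of each library with the most UMIs of the list, a step chosen after seeing the data, Isg15 stood at 58.0 and 121 CPM, the sums were 864 and 821, and the median was -0.16, with 6 of 14 genes above 0. The forkhead-expressing cells had a median of -0.35, with 5 of 14 genes above 0 and sums of 613 and 793, and the universal fibroblast-like cells one of 0.49, with 9 of 14 genes above 0 and sums of 1512 and 1638. Both Cd34-high cells (median 1.36, 14 of 14 genes above 0) and Scx-positive cells (1.35, 14 of 14) had medians nearer to that of the other mesenchymal cells, whereas endothelial cells had a median of -0.16, neutrophils of -0.07 and Bglap-high cells, the osteoblasts, of -3.37, with 1 of 14 genes above 0 and sums of 35.6 and 175. The difference between the populations was not tested, since each is 1 sum per library.

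**Figure D5:**
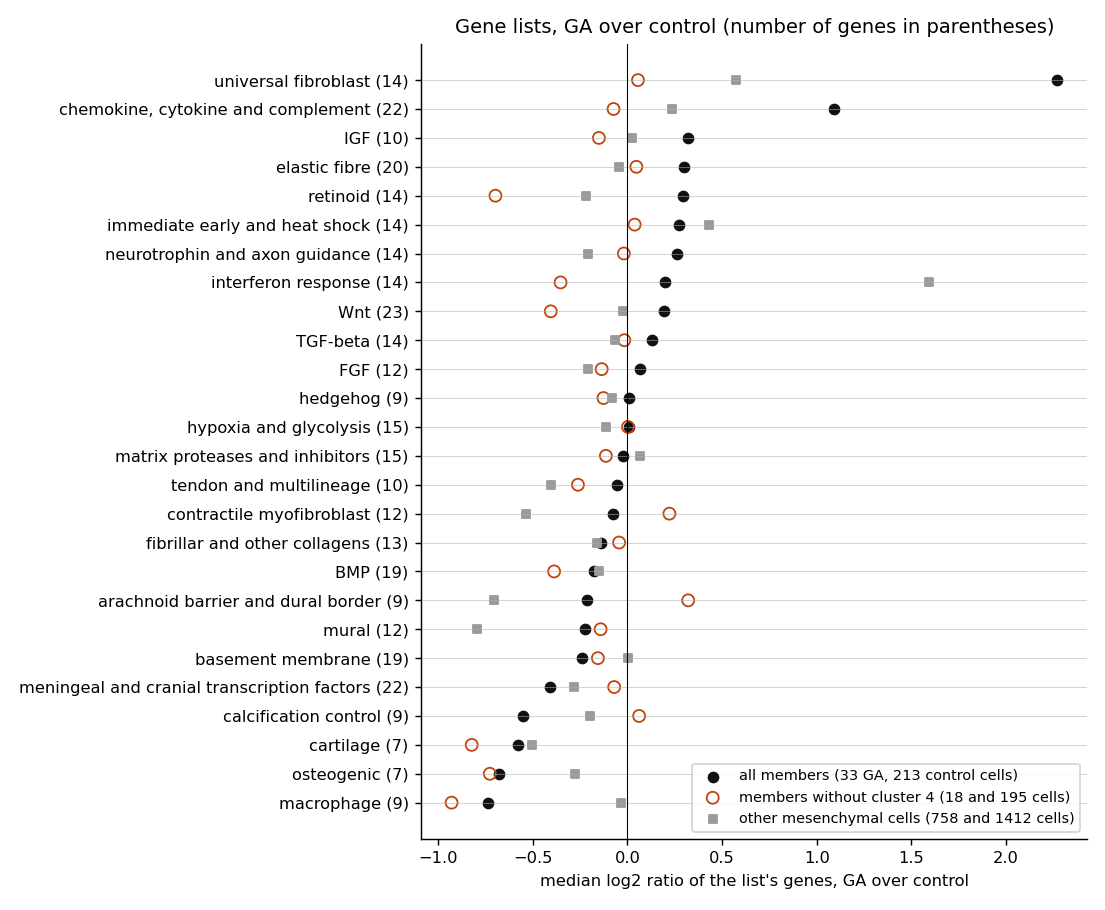
Median log2 ratio of GA to control for each gene list with 7 or more genes, in all Eln and Mgp cells (black), in those without cluster 4 (open circles) and in the other mesenchymal cells (squares). The universal fibroblast list moves from 2.27 to 0.06 and the chemokine, cytokine and complement list from 1.09 to -0.07 without cluster 4, and the interferon list lies at 0.20 in the set and 1.59 in the other mesenchymal cells. Cluster 4 was picked by the universal fibroblast list, so the fall of that list is built in.

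Further lists were described in the same way. In the whole set, BMP genes had a median of -0.18, with 1 of 16 higher (Chrdl1, a BMP antagonist gene, 2.14) and 1 lower (Smoc1, -1.03). Hedgehog genes had 0.01, TGF-beta genes 0.13, fibrillar and other collagens -0.14, basement membrane genes -0.24 and matrix protease genes -0.02, with Mmp13 as the single gene past 2-fold in that list. Insulin-like growth factor genes had 0.32, with Igfbp4 higher (1.23) and Igf2 lower (-1.07), and their median was -0.15 in the forkhead-expressing cells. Osteogenic genes had -0.68, with Spp1, Omd and Col11a2 lower. Neurotrophin and axon guidance genes had 0.26, with Ntrk2, Sema3c and Ntn1 higher and Bdnf and Ntrk3 lower. None of these medians was past 1.

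Other lists held a few genes past 2-fold. Of 13 Wnt genes, Sfrp1 (1.48), Sfrp2 (1.35) and Wnt2 (1.20) were higher and Sfrp4 (-1.26) lower, around a median of 0.20. Of 9 FGF genes, Fgf7 was higher (1.26) and Spry1, a feedback inhibitor gene, lower (-1.27). Of 10 retinoid genes, Aldh1a3 was higher and the receptor gene Rarb (-1.87) and the retinol dehydrogenase gene Rdh10 (-1.22) lower. In the forkhead-expressing cells alone Sfrp2 stood at -0.95, Fgf7 at -1.06, Chrdl1 at -1.93, Igfbp4 at -0.07, Sema3c at -0.08 and Tnmd, a tendon gene, at -0.25, so that these genes, higher over the whole set, were not higher there. Rarb stayed lower, at -1.46. Among contractile genes Tnc, tenascin C, was lower (-1.43) around a median of -0.08, among mural genes Abcc9 was higher (2.03), and among tendon genes Tnmd was higher (1.37), though it stood at -0.0036 without its 5 highest cells. Abcc9 had 0 UMIs in the forkhead-expressing GA cells and 9 in control, so that its GA UMIs all came from cluster 4. The hypoxia and glycolysis list had a median of 0.01, with Ndrg1 higher (1.24), the immediate early and heat shock list 0.27, with none of 14 past 2-fold, calcification control -0.55, cartilage -0.58, arachnoid barrier -0.21, Schwann cell 0.08, keratinocyte 0.72, and B cell and immunoglobulin genes -0.60. Of 5 arachnoid barrier genes with 100 UMIs, 2 were past 2-fold lower over the whole set and none higher. Of 4 cartilage genes 1 was lower, of 9 calcification control genes 1 was lower and of 3 keratinocyte genes 1 was higher. In the forkhead-expressing cells calcification control stood at 0.06, cartilage at -0.82 and arachnoid barrier at 0.32.

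Markers of other cells moved with the libraries. The neutrophil list was higher in the GA cells of the set, with summed levels of 473 and 153 CPM. These sums hold S100a8 and S100a9, which the selection used and which gave 175 and 238 UMIs in GA and 420 and 595 in control. All 3 genes of the list with 100 UMIs that the selection did not use were past 2-fold higher. The most abundant gene of the list was S100a9, at 197 and 62.9. In the other mesenchymal cells the sums were 570 and 194, and the defining neutrophil genes Ly6g and Cxcr2 had 1 and 0 UMIs in the GA cells of the set. Macrophage genes were at 82.7 and 114 CPM, led by Lyz2. The erythroid list was at 19.02 in GA and 373 in control, and for each gene a single control cell of cluster 4 held most UMIs, 1690 of 1776 for Hbb-bs, 709 of 730 for Hba-a1 and 568 of 584 for Hba-a2. The part of these transcripts in the other differences was not tested.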

How the data were processed

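Single-cell RNA was measured in 2 libraries, 1 per group, each of pooled mice. The authors deposited counts, that is, whole UMIs per gene and barcode, which per the file headers came from Cell Ranger 7.0.1 and per the labels from the mouse build mm10; the study's methods name another Cell Ranger version. Barcodes were kept as cells within 500 to 140000 UMIs, within 200 to 9500 genes and at no more than 15% mitochondrial UMIs (9036 GA, 8093 control), with medians of 11267 and 17499 UMIs. For each library, the UMIs of a population were added up and given as CPM, that is, scaled to a common total. With 1 library per group there was no test and no p-value. Shares have Clopper-Pearson intervals, ratios of shares log-normal ones, and log2 ratios exact binomial ones, and all cover counting error only.

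Comparison populations were set by levels of Cd34, Scx, Pecam1 with Cdh5, or S100a8 with S100a9; a rule for mural cells found too few cells to compare. Eln and Mgp cells were clustered with scanpy 1.11.5 (Pearson residuals with theta 100, 2000 variable genes, 20 components, 15 neighbours) and leidenalg 0.10.2 at resolution 0.5. Scrublet marked 0 GA barcodes and 32 control barcodes (0.367%), too few to rely on, so removal of the barcodes with the highest scores, 0.8% per 1000 barcodes, was run as an alternative, which took 4 GA and 8 control cells of the set. Genes were tabulated with 100 UMIs over the cells compared, and list medians used genes with 20. Genes named are the selection genes and markers, the 20 highest and 10 lowest against other mesenchymal cells, the 10 highest and 10 lowest between libraries that held without the top 5 cells (for 7 of the 10 lowest no GA UMI was then left, so the condition could not fail), up to 4 abundant genes and any past 2-fold in a list, and 10 per cluster; others were named after their values were seen. The cells, the lists and the tests were chosen with earlier results of these data known. The split into universal fibroblast-like and forkhead-expressing cells, and all values from it, were chosen after seeing the data. The steps were tested on simulated data drawn without variation between cells. That test does not cover intervals where single cells hold many of a gene's UMIs. Some genes are not reported here.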

Additional observations from a re-analysis of the deposited data

Results flagged for a closer look

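In 5 genes of the lists the difference between the Eln and Mgp cells and the other mesenchymal cells was past 2-fold in opposite directions in the libraries, as were 31 of all 11518 genes tabulated. For Cyp26b1, an enzyme gene of retinoic acid breakdown, the log2 difference was 2.18 in GA and -2.37 in control, from 23 and 9 UMIs in the set, and all 23 came from universal fibroblast-like cells. For Ifit3, an interferon response gene, it was -1.74 in GA and 1.12 in control. For the haemoglobin genes it was -1.78 and 3.13 (Hbb-bs), -4.04 and 3.51 (Hba-a1) and -2.36 and 3.36 (Hba-a2), and for each of them a single control cell held 1690, 709 and 568 of the 1776, 730 and 584 UMIs. These differences were not tested.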

How the results depend on the processing

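No paired analysis was possible because each group has 1 library. The share of Eln and Mgp cells among mesenchymal cells, 0.318 of control in GA, lay between 0.295 and 0.419 with the Eln and Mgp limits doubled or halved, doublets removed, cells under 10000 UMIs left out, cells thinned, or mitochondrial UMIs limited to 10%. It was 0.139 of all cells, and 0.190 without the universal fibroblast-like cluster, an alternative chosen after seeing the data. The 151 genes higher and 257 lower in GA became 576 and 1337 after thinning to 5000 UMIs, 48 and 2224 without each gene's 5 highest cells (5 of 33 GA cells but 5 of 213 control cells), 490 and 980 with 20 UMIs required, and 43 and 41 with 500. Without the universal cluster 85 were higher. The 421 genes higher and 512 lower than in other mesenchymal cells became 173 and 280 with 500 UMIs required, and at resolution 1 the 4 clusters became 7. Agreement with the main clusters, as the adjusted Rand index (higher for closer agreement), was 0.58 at resolution 1 and 0.80 with 1000 variable genes. All values of forkhead-expressing and universal fibroblast-like cells rest on the main clusters.

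Some named genes changed the sign of the log2 ratio of GA to control, and the cause was not tested. Il34 was at -1.31 after thinning. Without their 5 highest cells, Aldh1a3 was at -1.42, Cxcl5 at -2.41, Kitl at -0.58, Sfn at -0.89 and Tnmd at -0.0036. With limits doubled, Aldh1a3 was at -0.37, Cxcl5 at -1.76 and Hba-a2 at 0.15, and with limits halved, Bdnf was at 0.046, Cxcl5 at -0.15 and Mmp13 at 1.34. Without the universal cluster, C1ra was at -0.096, Ccl7 at -1.64, Ccl8 at -1.45, Cd34 at -0.46, Chrdl1 at -1.93, Cxcl1 at -0.050, Cxcl5 at -2.10, Fbln2 at -0.0038, Fgf7 at -1.06, Has1 at -0.042, Igfbp4 at -0.072, Ly6a at -0.077, Sema3c at -0.081, Serping1 at -0.37, Sfrp2 at -0.95 and Tnmd at -0.25. In that setting 25 named genes stayed past 2-fold in the same direction, 22 did not and 16 turned. Of the list medians, 17 of 31 moved by more than 0.5 of the interquartile range of the list's genes in that setting (Wnt from 0.20 to -0.40, retinoid from 0.30 to -0.70, BMP from -0.18 to -0.39), and without each gene's 5 highest cells 21 moved and 2 did not. With 33 GA cells, counting error and single cells limit every gene with few UMIs, and a difference between 2 libraries is not a difference between treatments.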
